A study of Mus musculus with 30 samples.

Results

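Chromatin accessibility was described at 35 mouse genes of glucose and lactate transport, glycolysis, PI3K-AKT signalling, the mTOR complexes and their regulators, amino acid transport, and the transcription factors Hif1a and Myc. Members were the peaks whose nearest protein-coding gene body, within 100 kb, was 1 of these genes. They came to 220 of the 69316 peaks in the larger deposited table, at 34 of the 35 genes. Pfkl had no peak. Of the 220 peaks, 150 lay in a gene body and 70 outside, and 2 were equally near to another gene. A peak's place beside a gene does not show that it acts on that gene, and no RNA was used here.

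The study asked how Foxp3, the transcription factor that defines regulatory T cells (Treg), and the AP-1 family factor BATF shape open chromatin in effector Treg. CD4+ T cells were sorted from lymph nodes and spleen, with 2 libraries in each of the 13 groups used. WT Treg (CD4+hCD2+) and WT Tconv, conventional T cells (CD4+hCD2-), came from Foxp3-IRES-hCD2 mice, whose hCD2 reporter marks Foxp3-expressing cells. BATFKO Treg came from Foxp3-IRES-hCD2.Batf-/- mice. Cells of the first genotype were also sorted as central Treg (cTreg, hCD2+CCR7hiCD62LhiCD44lo), effector Treg (eTreg, hCD2+CCR7loCD62Llo), naive conventional cells (Tnaive, hCD2-CCR7hiCD62LhiCD44lo) and effector conventional cells (Teff, hCD2-CCR7loCD62Llo). Foxp3R397W Treg (CD4+hCD2+GFP-) carried a mutant allele, Foxp3R397W-IRES-hCD2, beside Foxp3-IRES-GFP, and their control carried Foxp3WT-IRES-hCD2 beside it. The last 4 groups were DKO Treg, Foxp3KO-IRES-hCD2.Batf-/-, which lack both endogenous factors and were sorted as CD45.2+CD45.1-, GFP+ and Thy1.1+ cells that were CD4+hCD2+, after mock, Foxp3, BATF or both retroviruses. The mock group thus lacks both factors too. Mice were C57BL6/J where a strain is named, and ages are not given in the labels. R397W and DKO titles name omniATAC-seq, a variant with another lysis and enzyme, and the other titles name ATAC-seq. No comparison crosses the protocols as the titles give them. No label says that the libraries of a group came from separate animals, so the p-values cover library-to-library spread only, which may be technical.

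Glycolysis splits glucose into pyruvate, which T cells can reduce to lactate and export, and activated T cells are known to raise this flux. PI3K activates AKT, which relieves the TSC complex's restraint on the small GTPase RHEB, and RHEB turns on mTOR complex 1. That complex, containing RAPTOR (Rptor), promotes growth and the synthesis of HIF-1α and MYC, factors that bind many glycolytic genes. mTOR complex 2, containing RICTOR and its partner PRR5L, phosphorylates AKT. In Treg, mTOR signalling is known to support effector cells, and excess activity of mTOR and glycolysis is known to disturb their stability.

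Values are the authors' normalized peak scores, whose scale is set per library, and a difference is the log2 difference of score + 1 with its SE from limma. Peaks were called higher or lower at a Benjamini-Hochberg adjusted p under 0.05 over all 69316 peaks. Libraries held 3716499 to 25462278 reads in peaks, and the median SE of a log2 difference was 0.34 over all peaks. At the most open peak assigned to Foxp3 (chrX:7583922-7584322), WT Treg, cTreg, eTreg, BATFKO, R397W and R397W control libraries scored 316 to 436, against 1.28 to 13.6 in Tconv, Tnaive and Teff. It scored 595 to 1119 in DKO libraries and so is no check of the Foxp3 knockout. At a Batf peak (chr12:85686411-85686811) BATFKO libraries held 0 reads. Of the 18 libraries that both deposited tables hold, 12 carry other names in the smaller table, among them every cTreg, eTreg, Tnaive, Teff, R397W and R397W control library, so their group and protocol depend on which table's names are right. Under the smaller table's names, the 2 Treg libraries of the Foxp3KO control would be those with 1.28 and 9.07 at the Foxp3 peak. The 2 called Foxp3KO Treg would be those with 7.83 and 7.84. Names of the larger table are used below, and counts from the smaller table under its own names are given beside them. The smaller table also has its own peaks and scaling, and its Tnaive and Teff libraries match none in the larger. Such counts therefore differ by more than names. Columns of the larger table named as Foxp3 WT Treg were read as the R397W control. Peaks near markers of B cells, myeloid and erythroid cells each held under 0.02% of all scores in every group, and those of CD8 and NK cells 0.0295% to 0.0565%. The T cell markers' own peaks held 0.0488% to 0.093%, so these shares do not show that other cells were absent. Peaks lay near 4 of 7 B cell, 6 of 7 myeloid and 3 of 5 erythroid markers. Cd79a, Ms4a1, Csf1r, Alas2 and Hba-a1 were among the listed markers with no peak.

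Peaks at the start of a gene were more open than the others and were seldom called. A start window ran from 250 bases before to 50 bases after an annotated start, and 32 member peaks overlapped such a window. Their median score over all libraries was 505.1, against 61.0 for the other 188 member peaks. For all peaks the corresponding medians were 339.7 and 41.27. Of the 32, 7 were called in at least 1 of the 12 comparisons (21.9%, against 35.9% of all start-window peaks). Of the other 188, 127 were called (67.6%, against 66.3% of all peaks elsewhere), so away from starts the members' share was near the background. Each gene's most open peak lay in a start window for 26 of 34 genes, and 25 of those 34 peaks were called in no comparison. No peak of Ldha, Pfkm, Tpi1, Tsc1, Akt1 or Akt2 was called in any comparison.

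**Figure D1:**
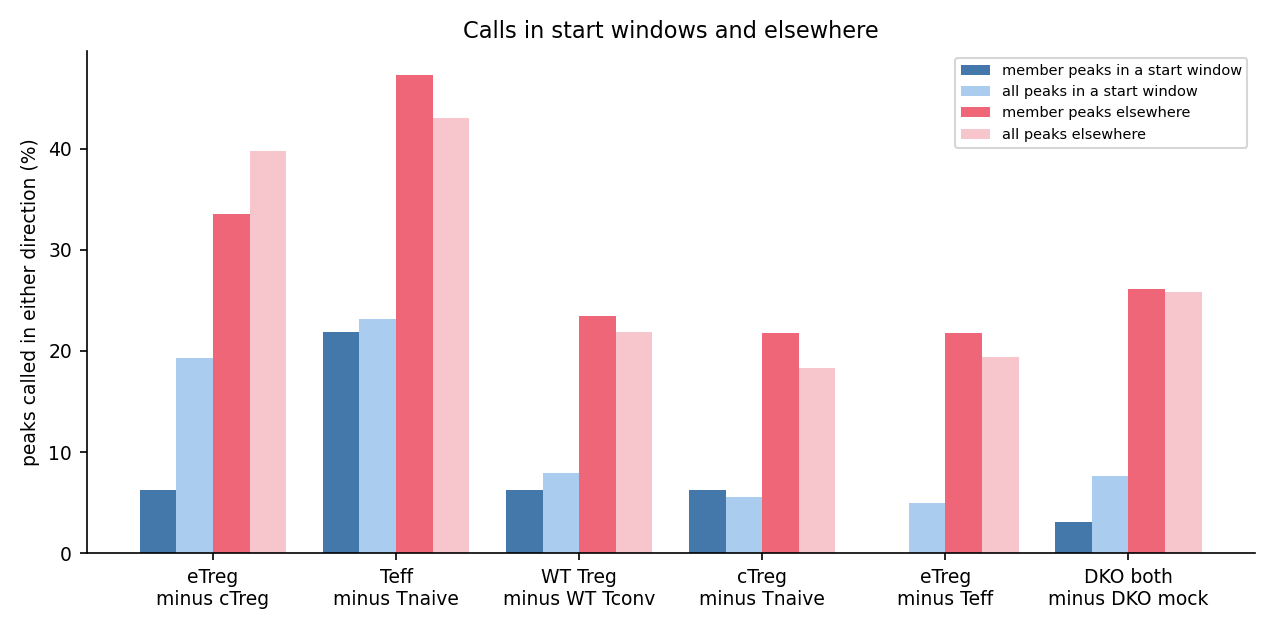
Percent of peaks called higher or lower (y axis) in 6 comparisons (x axis), for member peaks and all peaks, in start windows and elsewhere. In the eTreg and cTreg comparison 6.25% of member start-window peaks were called against 19.3% of all such peaks, and 33.5% against 39.8% elsewhere.

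RefSeq (GRCm38.p6) promoter sequences were matched for 31 of the 34 genes, and 30 of the windows, at 26 genes, overlapped a member peak. They are shown because HIF-1 and MYC are known to bind ACGTG and CACGTG cores. Among those 30 windows, ACGTG on either strand was found in 14, at 13 genes, and CACGTG, which contains it, in 4. TGANTCA, the AP-1 motif, was found in 1, at Aldoa. Of 32851 promoters of the same length, 16.6% held ACGTG, 6.02% CACGTG and 6.75% TGANTCA. These promoters were taken with or without a peak and not matched for base content, so the 2 sets are unlike. No enrichment was tested. The 4 stretches below are the 250 bases before a start, 5′ to 3′ on the gene's strand, with matches on either strand in capitals, chosen after their values were seen. A match is only a run of letters, and its absence says nothing of a factor's binding.
Hk2, chr6:82774455-82774704, minus strand: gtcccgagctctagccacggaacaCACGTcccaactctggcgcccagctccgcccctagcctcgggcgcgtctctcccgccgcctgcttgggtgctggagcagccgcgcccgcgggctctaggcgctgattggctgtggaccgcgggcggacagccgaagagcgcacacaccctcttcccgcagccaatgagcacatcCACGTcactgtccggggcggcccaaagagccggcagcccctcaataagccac
Ldha, chr7:46845554-46845803, plus strand: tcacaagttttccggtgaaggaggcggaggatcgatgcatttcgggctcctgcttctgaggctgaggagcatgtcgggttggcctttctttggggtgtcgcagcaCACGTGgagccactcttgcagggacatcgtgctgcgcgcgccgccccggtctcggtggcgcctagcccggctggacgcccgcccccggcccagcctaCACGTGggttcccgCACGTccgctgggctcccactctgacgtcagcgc
Hif1a, chr12:73907617-73907866, plus strand: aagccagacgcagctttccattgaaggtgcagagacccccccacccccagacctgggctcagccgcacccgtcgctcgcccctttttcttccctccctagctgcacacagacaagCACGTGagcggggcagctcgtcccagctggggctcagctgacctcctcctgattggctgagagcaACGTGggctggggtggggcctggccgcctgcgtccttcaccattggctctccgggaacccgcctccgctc
Tsc2, chr17:24632628-24632877, minus strand: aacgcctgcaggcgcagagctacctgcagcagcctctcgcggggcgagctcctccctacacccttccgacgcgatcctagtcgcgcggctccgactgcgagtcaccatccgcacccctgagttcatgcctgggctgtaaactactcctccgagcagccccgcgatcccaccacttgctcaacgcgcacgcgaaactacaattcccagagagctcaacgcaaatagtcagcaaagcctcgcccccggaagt
Hk2, whose start peak was called higher in effector cells, has 2 ACGTG matches. Ldha and Hif1a, whose start peaks were called in no comparison, have 5 and 3, with each CACGTG counted on both strands. By marked stretch they have 3 and 2, and Hk2 has 2. Tsc2, whose start peak was called lower in effector cells, has none.

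Across the member peaks, effector cells differed most from central or naive ones, WT Treg and Tconv differed at fewer, and loss or mutation of a single factor in Treg moved few. Between eTreg and cTreg, 44 of the 220 peaks were called higher and 21 lower in eTreg, beside 19.7% and 17.4% of all peaks. Quantile scaling gave 80 calls, 55.0% of them higher, against 67.7% as deposited. Between Teff and Tnaive, 64 were higher and 32 lower in Teff, beside 20.7% and 19.6%. In WT Treg 27 were higher and 19 lower than in Tconv, beside 10.1% and 9.92%. In cTreg 25 were higher and 18 lower than in Tnaive, beside 8.8% and 7.82%, and in eTreg 18 were higher and 23 lower than in Teff, beside 8.4% and 9.07%. Most of these shares lie near the background. The smaller table, under its own names and with 225 member peaks, had other libraries as eTreg, cTreg, Tnaive and Teff. It gave 4 peaks higher and 8 lower in eTreg than in cTreg, and 2 higher and 7 lower in Teff than in Tnaive. Its eTreg and cTreg libraries are those named R397W and R397W control in the larger table. Its Tnaive and Teff libraries match none there. It gave 0 calls for cTreg and Tnaive (2 at an unadjusted p under 0.05) and 0 for eTreg and Teff (2). For WT Treg and Tconv, whose libraries carry the same names in both tables, it gave 63 higher and 15 lower. A fit of only the groups compared turned the balance in the other direction for cTreg and Tnaive (26 higher, 29 lower) and for eTreg and Teff (32 higher, 28 lower). Leaving out WT Treg replicate 1 or WT Tconv replicate 1 left 25 or 30 of the 46 calls between those groups, and leaving out cTreg replicate 2 left 26 calls against Tnaive. Leaving out any of the 4 eTreg and Teff libraries left 22 to 27 of the 41.

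The change from central to effector Treg and from naive to effector conventional cells had much in common at these peaks. Called higher in both steps were 35 member peaks, called lower in both 14, and 1 was called in opposite directions. The log2 differences of the steps had Pearson's r = 0.686 across the 220 peaks, as a description only, since peaks share libraries. Neither the joint counts nor r were computed over all peaks, so they do not set these genes apart. Where the steps were tested against each other, as the eTreg minus cTreg difference minus the Teff minus Tnaive difference, 2 peaks were called higher and 13 lower, beside 1.18% and 2.72% of all peaks. Of the 13 lower, 11 were at Prr5l, and the other 2 at Hk1 and Slc2a1. Both higher ones were near Myc. The count fell to 6 without cTreg replicate 2 or Teff replicate 2, to 7 without eTreg replicate 1, and to 9 without eTreg replicate 2 or Tnaive replicate 2. In the smaller table, with other libraries in all of these groups, it was 0 (1 at an unadjusted p under 0.05). Peaks of naive or central T cell markers summed to 9056 to 9185 in eTreg and 16240 to 17620 in cTreg, and to 11050 to 11450 in Teff and 19560 to 20960 in Tnaive. Those of effector markers summed to 14860 to 14960 in eTreg, 9765 to 10470 in cTreg, 14370 to 14690 in Teff and 9457 to 9629 in Tnaive. These lists cover all 5 and all 6 of their genes. Sums for markers of other cells also differed. Peaks of all 7 CD8 and NK cell markers summed to 2757 to 2762 in eTreg and 4205 to 4380 in cTreg, and to 3279 to 3311 in Teff and 5183 to 5657 in Tnaive. Those of 6 of 7 myeloid markers, all but Csf1r, summed to 1073 to 1143 in eTreg, 622.7 to 627.4 in cTreg, 1155 to 1157 in Teff and 800.8 to 936.8 in Tnaive. The part of these lists in the member results was not tested. In such sorted pools, a change in the make-up of the cells and a change within each cell cannot be told apart.

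**Figure D2:**
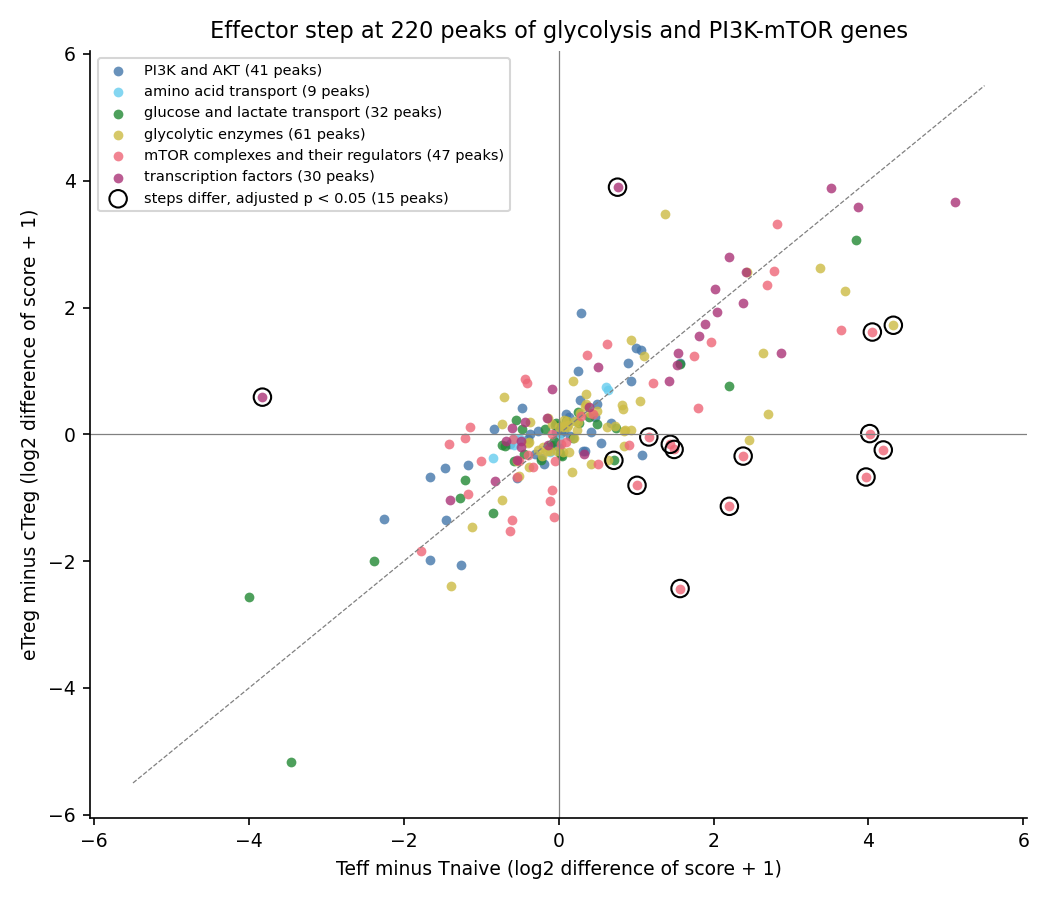
Log2 difference between eTreg and cTreg (y axis) against that between Teff and Tnaive (x axis) at the 220 member peaks, coloured by role. Points on the dashed line changed equally, and the circles mark the 15 peaks whose steps differed in the test, 13 of them below the line.

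Among the transporters, an internal peak of Slc2a3 followed the effector state most closely, and Slc16a1 peaks mostly went the other way. The 4 transporter genes had 32 peaks, of which 2 were higher and 6 lower in eTreg than in cTreg (median log2 difference -0.13, all peaks 0.03), and 5 higher and 9 lower in Teff than in Tnaive (median -0.05, all peaks -0.01). These are 6.25% and 18.8% beside 19.7% and 17.4% of all peaks, and 15.6% and 28.1% beside 20.7% and 19.6%. Slc2a3 encodes GLUT3, a high-affinity glucose transporter. Its peak at chr6:122758726-122759126, in the gene body, scored 16.9 and 28.6 in cTreg and 207 and 179 in eTreg, and 15.3 and 3.89 in Tnaive and 138 and 115 in Teff. Both effector groups lay far above both resting groups. The log2 difference was 3.07 ± 0.37 (SE, adjusted p = 1.2e-07) for eTreg and 3.83 ± 0.37 (adjusted p = 1.6e-09) for Teff. WT Treg scored 110 and 100 and WT Tconv 32.7 and 20.4, without overlap (1.98 ± 0.37, adjusted p = 0.00022). A second internal peak, at chr6:122763366-122763766, was lower in both effector groups, by -1.25 ± 0.27 in eTreg (adjusted p = 0.00038) and -0.85 ± 0.27 in Teff (adjusted p = 0.011). The Teff call was lost without Tnaive replicate 1 or Teff replicate 1 (adjusted p = 0.067 and 0.3). The gene's most open peak, at chr6:122810811-122811211, was called in no comparison.

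Slc2a1 encodes GLUT1, the main glucose transporter of activated T cells. At chr4:119125901-119126301, in the gene body, it scored 76.4 and 98.1 in cTreg and 199 and 177 in eTreg, 37 and 63.5 in Tnaive, and 140 and 151 in Teff. Effector libraries were again the higher, by 1.11 ± 0.30 (adjusted p = 0.0037, but 0.058 without cTreg replicate 1) and 1.56 ± 0.30 (adjusted p = 9.2e-05). At chr4:119127217-119127617 only the conventional step was called: Tnaive scored 312 and 336 and Teff 552 and 510 (0.71 ± 0.22, adjusted p = 0.0097). There cTreg scored 369 and 505 and eTreg 329 and 320, and the steps differed by -1.12 ± 0.31 (adjusted p = 0.034). That call was lost when any of the 8 libraries except cTreg replicate 1 was left out (adjusted p from 0.068 to 0.2).

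Slc16a1 encodes the lactate and pyruvate carrier MCT1. Of its 11 peaks, 5 were lower and none higher in eTreg than in cTreg, and 7 were lower and 2 higher in Teff than in Tnaive. At chr3:104630943-104631343, outside the gene body, Tconv scored 168 and 177 and Tnaive 178 and 219, against 28.1 and 29.6 in WT Treg and 38.2 and 32 in cTreg. Teff scored 8.71 and 14.7 and eTreg 4.43 and 5.85. The peak was thus highest in Tconv and Tnaive and lowest in both effector groups. The log2 difference was -4.01 ± 0.37 for Teff and Tnaive (adjusted p = 5.3e-10), -2.56 ± 0.37 for eTreg and cTreg (adjusted p = 1.9e-06) and -2.54 ± 0.37 for WT Treg and Tconv (adjusted p = 6.7e-06). At chr3:104707815-104708215 both eTreg libraries held 0 reads and cTreg scored 40.9 and 29.8. Against a floor of 3 reads per library, eTreg was at least 10.3-fold lower. Slc16a3, which encodes the lactate exporter MCT4, had 3 peaks, of which 1 was higher in cTreg than in Tnaive and in WT Treg than in Tconv.

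At the glycolytic enzymes, few peaks were called lower in effector cells, and the share called higher stood above the background in Teff and not in eTreg. The 14 enzyme genes with a peak had 61 peaks. Of these, 11 were higher and 3 lower in eTreg than in cTreg (median log2 difference 0.13), and 19 higher and 1 lower in Teff than in Tnaive (median 0.20). In eTreg the 11 are 18% of the 61, beside 19.7% of all peaks, and the 3 lower are 4.92%, beside 17.4%. In Teff 31.1% were higher and 1.64% lower, beside 20.7% and 19.6%. These differences from the background were not tested. Comparing effector groups, 2 of the 61 were higher and 8 lower in eTreg than in Teff. These are 3.28% and 13.1%, beside 8.4% and 9.07% of all peaks. Higher in Teff than in Tnaive were 5 of 12 peaks at Pfkp, 4 of 9 at Hk2, 3 of 6 at Eno1, 2 of 6 at Hk1, 2 of 2 at Gpi1, and 1 each at Gapdh, Pgam1 and Bpgm.

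Hexokinases phosphorylate incoming glucose, and HK2 is the form induced in activated T cells. The Hk2 start peak (chr6:82774385-82774785) covers all 250 bases of the Hk2 promoter printed above. It scored 188 and 220 in cTreg, 256 and 311 in eTreg, 154 and 165 in Tnaive, and 314 and 251 in Teff. Effector and resting libraries did not overlap, with 0.47 ± 0.17 for eTreg (adjusted p = 0.025) and 0.81 ± 0.17 for Teff (adjusted p = 0.00019). WT Treg, at 232 and 225, also lay above Tconv, at 163 and 136 (0.61 ± 0.17, adjusted p = 0.0078). The eTreg call was lost without eTreg replicate 2 or cTreg replicate 1 (adjusted p = 0.25 and 0.21), and the WT Treg call without WT Treg replicate 1 or Tconv replicate 2 (adjusted p = 0.058 and 0.11). An internal peak, at chr6:82744415-82744815, scored 20.4 and 15.4 in cTreg and 39.9 and 50.3 in eTreg, and 10.2 and 6.48 in Tnaive and 73.2 and 43 in Teff. Its difference was 1.29 ± 0.34 for eTreg (adjusted p = 0.0029) and 2.64 ± 0.34 for Teff (adjusted p = 2.4e-07).

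Hk1, the constitutive hexokinase gene, had an internal peak at chr10:62277508-62277908 that was open in Treg and in effector cells. WT Treg scored 103 and 77.6 and Tconv 18 and 13.6. It scored 47.1 and 45.2 in cTreg, 154 and 154 in eTreg, 6.39 and 0 in Tnaive, and 46.1 and 61.6 in Teff. Tnaive was lowest and eTreg highest, and no pair of compared groups overlapped. The eTreg step was 1.72 ± 0.47 (adjusted p = 0.005) and the Teff step 4.32 ± 0.47 (adjusted p = 3.8e-08), the latter against few reads and so dependent on the added 1. The steps differed by -2.60 ± 0.67 (adjusted p = 0.023), a call lost under 8 alternatives (adjusted p from 0.062 to 0.27), among them leaving out either eTreg or either cTreg library. At chr10:62313145-62313545, eTreg scored 60.9 and 39.8 and every other library 19.6 or less.

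PFKP, the platelet-type phosphofructokinase, catalyses a committed step of glycolysis. Its peak at chr13:6633517-6633917, in the gene body, scored 465 and 505 in cTreg, 1078 and 1217 in eTreg, 428 and 491 in Tnaive, and 942 and 1028 in Teff. The effector libraries all lay above the resting ones, by 1.24 ± 0.19 (adjusted p = 4.9e-06) in eTreg and 1.10 ± 0.19 (adjusted p = 2.3e-05) in Teff. WT Treg scored 808 and 676 and Tconv 396.8 and 434 (0.83 ± 0.19, adjusted p = 0.0018). Close by, at chr13:6635198-6635598, eTreg scored 26.6 and 36.3 and Teff 114 and 144, so that eTreg lay below Teff (-2.01 ± 0.30, adjusted p = 1.3e-05). WT Treg was also below Tconv there (-1.48 ± 0.30, adjusted p = 0.00051).

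At other enzymes, single peaks were open mainly in conventional cells. PGAM1 converts 3-phosphoglycerate to its isomer. A Pgam1 peak at chr19:41916883-41917283 scored 80 and 90.9 in Tconv, 79.2 and 57 in Tnaive and 127 and 156 in Teff, but 8.55 and 13.3 in WT Treg, 16.9 and 11 in cTreg and 24.4 and 16.4 in eTreg. All conventional libraries lay above all Treg libraries of these groups (for WT Treg and Tconv, -2.88 ± 0.38, adjusted p = 1.9e-06). A Gpi1 peak (glucose-6-phosphate isomerase) at chr7:34209733-34210133 was highest in Teff, at 56.6 and 75.3 against 13.3 and 11.7 in eTreg (-2.30 ± 0.55, adjusted p = 0.0033, but 0.055 without Teff replicate 2). Start peaks of Eno1 (enolase, chr4:150236944-150237344) and Gpi1 (chr7:34230117-34230517) were higher in Teff than in Tnaive by 0.73 ± 0.17 (adjusted p = 0.00072) and 0.41 ± 0.16 (adjusted p = 0.046). The Gpi1 start call was lost when any of its 4 libraries was left out (adjusted p from 0.068 to 0.24).

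BPGM makes 2,3-bisphosphoglycerate in a side branch of glycolysis. Its peak at chr6:34495046-34495446, in the gene body, scored 369 and 381 in Tnaive and 317 and 211 in Tconv, and 142 and 143 in Teff. Treg scored lower: 75.5 and 72.7 in cTreg, 50.1 and 31.6 in WT Treg, and 16.6 and 10.5 in eTreg. No pair of groups compared here overlapped. The difference was -2.67 ± 0.30 for WT Treg and Tconv (adjusted p = 1.3e-07), -2.40 ± 0.30 for eTreg and cTreg (adjusted p = 2.2e-07) and -1.39 ± 0.30 for Teff and Tnaive (adjusted p = 0.00039). For Ldha, the lactate dehydrogenase gene, the start peak (chr7:46845611-46846011) scored 308 and 312 in cTreg, 350 and 360 in eTreg, 276 and 324 in Tnaive, and 358 and 355 in Teff, and neither step passed the test.

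At the mTOR complexes, most Prr5l peaks were more open in cTreg and in Teff than in Tnaive. The 8 genes had 47 peaks, of which 7 were higher and 6 lower in eTreg than in cTreg (median log2 difference -0.16), and 19 higher and 6 lower in Teff than in Tnaive (median 0.36). These are 14.9% and 12.8%, beside 19.7% and 17.4% of all peaks, and 40.4% and 12.8%, beside 20.7% and 19.6%. Prr5l had 14 of these peaks. In Teff 11 of the 14 were higher than in Tnaive and none lower, in cTreg 10 were higher than in Tnaive and none lower, and in WT Treg 8 were higher than in Tconv and none lower. Between eTreg and cTreg 1 was higher and 1 lower. Of all peaks 8.8% were higher in cTreg than in Tnaive, and 10.1% in WT Treg than in Tconv. The most open of them, at chr2:101796521-101796921, scored 8.94 and 13 in Tnaive and 39.2 and 27.3 in Tconv. It scored 198 and 182 in Teff, 196 and 208 in cTreg, 195 and 213 in eTreg, and 181 and 204 in WT Treg. Teff thus reached the Treg level, and cTreg and eTreg overlapped. The difference was 4.02 ± 0.19 for Teff and Tnaive (adjusted p = 1.2e-15), 4.11 ± 0.19 for cTreg and Tnaive (adjusted p = 2.7e-15) and 2.52 ± 0.19 for WT Treg and Tconv (adjusted p = 1.7e-10). The Treg and conventional effector steps differed by -4.01 ± 0.27 (adjusted p = 1.6e-10).

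The other Prr5l peaks did not all follow that order. At chr2:101822738-101823138 Tnaive scored 1.28 and 0, Teff 31.4 and 22.5, cTreg 85.3 and 83.8, and eTreg 65.4 and 77.2, so Teff was below eTreg (1.39 ± 0.36, adjusted p = 0.0064), a call lost without eTreg replicate 2 or Teff replicate 2 (adjusted p = 0.072 and 0.1). At chr2:101823934-101824334 Tnaive scored 2.55 and 3.89, Teff 20.9 and 20.5, cTreg 102 and 108, and eTreg 82 and 83.1, with the same order (1.94 ± 0.32, adjusted p = 5.5e-05). At chr2:101756036-101756436 Teff was instead the highest of the 7 groups titled ATAC-seq, at 288 and 250 against 145 and 143 in eTreg (-0.90 ± 0.23, adjusted p = 0.0055, but 0.073 without Teff replicate 1). The peak called in opposite directions, at chr2:101781420-101781820, scored 24 and 37.5 in cTreg, 8.86 and 2.34 in eTreg, 0 and 2.59 in Tnaive, and 4.35 and 4.89 in Teff. Those low scores rest on few reads, and the Teff call there was lost under 7 alternatives.

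**Figure D3:**
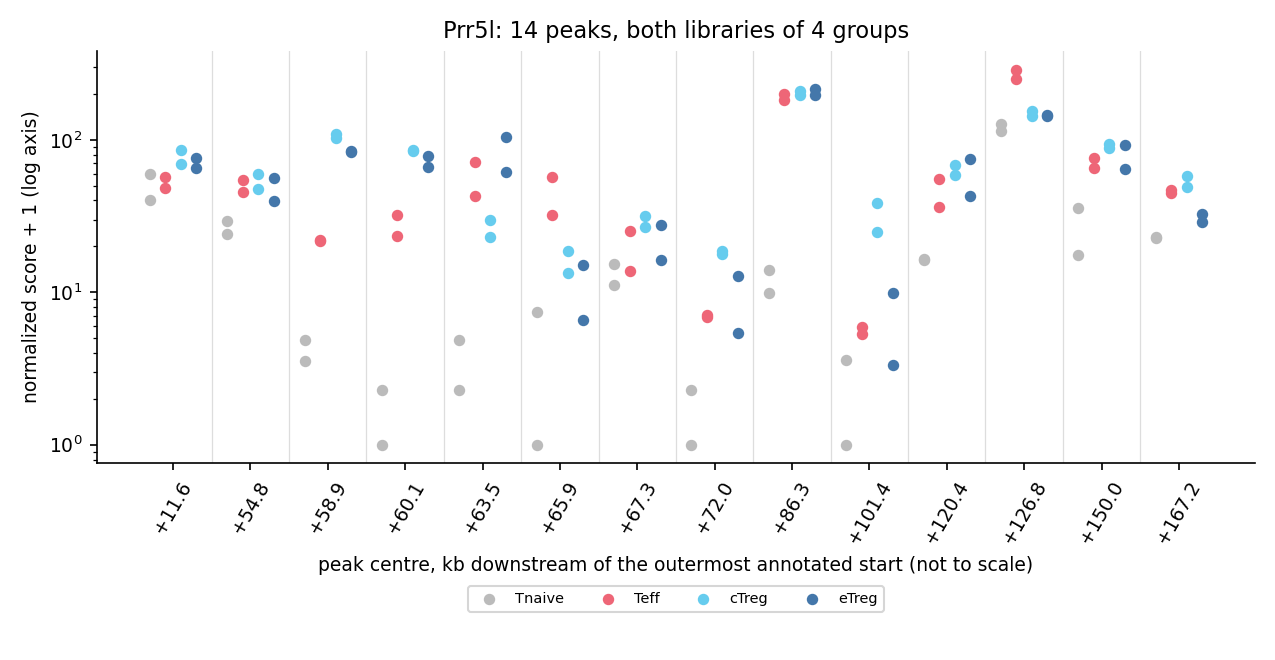
Normalized score + 1 (log axis) at the 14 Prr5l peaks (x axis: kb downstream of the outermost annotated start, from 11.6 to 167.2) in Tnaive, Teff, cTreg and eTreg, with both libraries shown. Tnaive is the lowest of the 4 at the peak 86.3 kb downstream, at 8.94 and 13 against 182 to 213 in the other groups.

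RAPTOR recruits substrates to mTOR complex 1. Of the 15 Rptor peaks, 5 were lower and none higher in WT Treg than in Tconv, 6 were lower and 1 higher in cTreg than in Tnaive, and 6 were lower and 1 higher in eTreg than in Teff. For all peaks the shares lower and higher were 9.92% and 10.1%, 7.82% and 8.8%, and 9.07% and 8.4%. At chr11:119670998-119671398 Tconv scored 451 and 473 and WT Treg 233 and 272 (-0.87 ± 0.24, adjusted p = 0.011), a call lost without WT Treg replicate 1 or Tconv replicate 2 (adjusted p = 0.11 and 0.072). Other Rptor peaks opened in effector cells. At chr11:119676883-119677283 cTreg scored 16.9 and 5.51, eTreg 132 and 85.4, Tnaive 7.66 and 15.6, and Teff 91.4 and 76.3. Both effector groups lay above both resting groups, by 3.31 ± 0.37 (adjusted p = 2.9e-08) in eTreg and 2.82 ± 0.37 (adjusted p = 3.4e-07) in Teff.

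All 4 Mtor peaks were higher in Teff than in Tnaive, and 2 of them in eTreg than in cTreg. Mtor encodes the kinase of both complexes. Its start peak (chr4:148448279-148448679) scored 1045 and 1016 in Tnaive and 1389 and 1401 in Teff (0.44 ± 0.17, adjusted p = 0.041, and 0.11 to 0.15 with any of these 4 libraries left out), and 1026 and 998 in cTreg and 1221 and 1300 in eTreg, a difference that did not pass. TSC2 is a restraint on mTOR complex 1. The Tsc2 start peak (chr17:24632440-24632840), over the Tsc2 promoter printed above, scored 150 and 137 in cTreg and 89.7 and 90.1 in eTreg, and 175 and 148 in Tnaive and 118 and 104 in Teff. Both effector groups were lower, by -0.67 ± 0.18 (adjusted p = 0.0037) and -0.54 ± 0.18 (adjusted p = 0.017), and the latter call was lost under quantile scaling and without Tnaive replicate 1 or Teff replicate 2 (adjusted p = 0.078, 0.16 and 0.13). The start peak of Mlst8, a subunit of both complexes (chr17:24478747-24479147), was lower in Teff than in Tnaive (-0.51 ± 0.18, adjusted p = 0.025), a call lost under 5 alternatives, among them leaving out either Tnaive library or Teff replicate 1 (adjusted p from 0.064 to 0.18). Rheb had 1 of 5 peaks higher in eTreg than in cTreg (chr5:24825807-24826207, 1.42 ± 0.34, adjusted p = 0.0012, but 0.072 without cTreg replicate 1). Rictor had 1 of 4 lower in each effector step.

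At the PI3K and AKT genes no direction prevailed in the effector steps. Of 41 peaks, 5 were higher and 5 lower in eTreg than in cTreg, and 5 were higher and 8 lower in Teff than in Tnaive. These are 12.2% and 12.2%, beside 19.7% and 17.4% of all peaks, and 12.2% and 19.5%, beside 20.7% and 19.6%. In eTreg 7 were higher and 2 lower than in Teff, 17.1% and 4.88%, beside 8.4% and 9.07% of all peaks. With both factors in DKO Treg 1 was higher and 6 lower than in mock, 2.44% and 14.6%, beside 12.9% and 10.5%. Pik3r1, which encodes the regulatory subunit p85α, had 27 of the 41 peaks, with 7 higher and 1 lower in eTreg than in Teff. At chr13:101707244-101707644 Pik3r1 scored 160 and 122 in cTreg, 341 and 273 in eTreg, 161 and 122 in Tnaive, and 453 and 381 in Teff. Effector libraries were the higher in both lineages, by 1.12 ± 0.23 (adjusted p = 0.00031) and 1.56 ± 0.23 (adjusted p = 3.2e-06). At chr13:101796992-101797392, outside the gene body, only Teff was low, at 52.2 and 58.7 against 160 and 152 in Tnaive (-1.47 ± 0.23, adjusted p = 4.2e-06) and 125 and 142 in eTreg (1.25 ± 0.23, adjusted p = 0.00016). Pik3cd encodes the p110δ catalytic subunit of lymphocytes. At chr4:149702551-149702951 it scored 206 and 177 in Tconv and 105 and 150 in WT Treg (-0.60 ± 0.18, adjusted p = 0.018). The call was lost in a fit of only these groups (adjusted p = 0.059) and without WT Treg replicate 1 or Tconv replicate 1 (0.32 and 0.15).

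Of the 6 roles, the transcription factor genes had the largest share of peaks called higher in effector cells. Of the 30 peaks at Hif1a and Myc, 18 were higher and 1 lower in eTreg than in cTreg (median log2 difference 0.96), and 15 were higher and 6 lower in Teff than in Tnaive (median 0.63). The background was 19.7% and 17.4% in the first comparison, and 20.7% and 19.6% in the second. In eTreg 6 were higher (20%) and none lower than in Teff, beside 8.4% and 9.07% of all peaks. Hif1a encodes the oxygen-regulated subunit of HIF-1. It had 18 peaks, of which 13 were higher and 1 lower in eTreg than in cTreg, and 12 were higher and 2 lower in Teff than in Tnaive. The Hif1a start peak (chr12:73907663-73908063) was open in all sorted ATAC-seq groups, at 664.5 to 940, and was called in no comparison.

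The Hif1a peaks that moved lay mostly upstream. At chr12:73880381-73880781, 27.3 kb before the start, cTreg scored 11.6 and 12.1, eTreg 76.5 and 102, Tnaive 10.2 and 7.77, and Teff 47.9 and 41.1. eTreg was highest and both effector groups lay above the resting ones, by 2.80 ± 0.41 (adjusted p = 2.3e-06) and 2.19 ± 0.41 (adjusted p = 6.1e-05). At chr12:73895706-73896106, 12.0 kb before the start, cTreg scored 8 and 4.41, eTreg 93.1 and 112, Tnaive 2.55 and 3.89, and Teff 45.3 and 47.9 (3.89 ± 0.42, adjusted p = 1.5e-08, and 3.51 ± 0.42, adjusted p = 6.6e-08). Nearby, at chr12:73895180-73895580, both Tnaive libraries held 0 reads and Teff scored 32.2 and 35.2, at least 8.74-fold higher than a floor of 3 reads per library. At chr12:73879672-73880072 WT Treg scored 39.1 and 59.2, Tconv 13.1 and 18.2, eTreg 109 and 115, and Teff 44.4 and 47. Treg lay above their conventional counterparts there, by 1.58 ± 0.33 (adjusted p = 0.00065) for WT Treg and 1.27 ± 0.33 (adjusted p = 0.0058, but 0.052 without eTreg replicate 2) for eTreg.

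**Figure D4:**
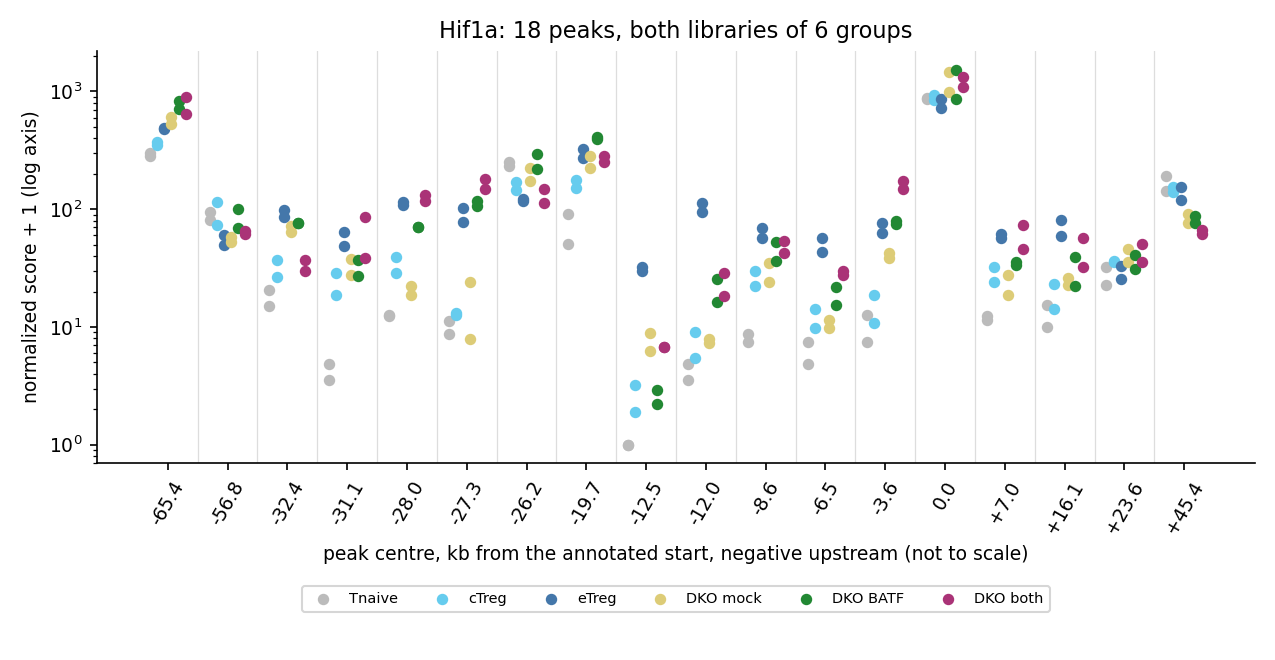
Normalized score + 1 (log axis) at the 18 Hif1a peaks (x axis: kb from the annotated start, from -65.4 to 45.4) in 6 groups, with both libraries shown. The peak at the start was called in no comparison, and the peaks 27.3 and 12.0 kb before it are high in eTreg and low in cTreg and Tnaive.

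MYC drives growth and glucose use in activated T cells. Of the 12 Myc peaks, 5 were higher and none lower in eTreg than in cTreg, and 3 were higher and 4 lower in Teff than in Tnaive. At chr15:61981461-61981861 WT Treg scored 191 and 196 and Tconv 29.4 and 43.2 (2.41 ± 0.19, adjusted p = 3.7e-10), and eTreg scored 304 and 358 and Teff 92.3 and 70.4 (2.02 ± 0.19, adjusted p = 1.4e-08). Treg libraries were the higher in both comparisons. At chr15:62043737-62044137 the effector groups stood out in both lineages: cTreg scored 19.6 and 18.7, eTreg 254 and 227, Tnaive 6.39 and 9.07, and Teff 158 and 98.8 (3.58 ± 0.30, adjusted p = 2e-10, and 3.87 ± 0.30, adjusted p = 2.3e-11). At chr15:61949551-61949951 eTreg alone stood out among the 4, at 47.6 and 52.7 against 6.48 or less, and the steps differed by 3.14 ± 0.84 (adjusted p = 0.028). That call was lost when any of the 8 libraries except Tnaive replicate 1 was left out (adjusted p from 0.064 to 0.19). At chr15:62025188-62025588 Tnaive scored 53.6 and 47.9 and Tconv 31 and 107, and Teff, cTreg, eTreg and WT Treg 8.17 or less. Its steps differed by 4.41 ± 1.13 (adjusted p = 0.021), a call lost with edgeR (adjusted p = 0.099) and without eTreg replicate 2, cTreg replicate 2, Teff replicate 2 or either Tnaive library (adjusted p from 0.053 to 0.19).

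The amino acid transporter genes Slc7a5 and Slc3a2, whose products form the leucine carrier LAT1-CD98, had 9 peaks. In eTreg 1 was higher (11.1%) and none lower than in cTreg, beside 19.7% and 17.4% of all peaks. In Teff 1 was higher and 2 lower than in Tnaive (11.1% and 22.2%), beside 20.7% and 19.6%. At chr8:121906451-121906851 Slc7a5 scored 99.5 and 93.7 in cTreg, 145 and 183 in eTreg, 99.6 and 109 in Tnaive, and 157 and 163 in Teff. Effector libraries were the higher, by 0.75 ± 0.19 (adjusted p = 0.0023) and 0.61 ± 0.19 (adjusted p = 0.01). The eTreg call was lost without eTreg replicate 2 (0.061), and the Teff call without Tnaive replicate 1 or Teff replicate 2 (0.075 and 0.062). A Slc3a2 peak at chr19:8711911-8712311 was lower in Teff than in Tnaive (-0.49 ± 0.20, adjusted p = 0.043), a call lost under 5 alternatives, among them leaving out either Tnaive library or Teff replicate 2 (adjusted p from 0.065 to 0.3).

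Loss of BATF in Treg lowered 3 member peaks and raised 1, beside 1.43% and 0.062% of all peaks. The lower ones were at Slc2a3, Prr5l and Pik3r1. At the Slc2a3 peak chr6:122758726-122759126, BATFKO scored 29.9 and 22.7 against 110 and 100 in WT Treg (-1.97 ± 0.37, adjusted p = 0.0018). At the Prr5l peak chr2:101819352-101819752, BATFKO scored 14.9 and 8.84 against 73.3 and 49 (-2.28 ± 0.45, adjusted p = 0.0029). At the Pik3r1 peak chr13:101713722-101714122, BATFKO scored 41.5 and 40.4 against 99 and 118 (-1.38 ± 0.24, adjusted p = 0.00089). In none of the 3 did the groups overlap, which is no added support, since lack of overlap was part of the rule for naming peaks. Each was also higher in eTreg than in cTreg. The raised peak, at Mtor (chr4:148480645-148481045), scored 29.9 and 13.9 against 3.67 and 3.06 (2.30 ± 0.55, adjusted p = 0.023). Without WT Treg replicate 1 only the Pik3r1 call was made, and the Slc2a3 and Prr5l calls were also lost without BATFKO replicate 2 (adjusted p = 0.058 and 0.1). In this comparison edgeR called 1 peak higher and 8 lower, and quantile scaling 4 and 8. The smaller table, where these libraries carry the same names, gave 0 and 7. The WT Treg libraries also enter the comparison with Tconv.

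Foxp3R397W Treg differed from their control at 5 member peaks, 3 higher and 2 lower, beside 0.776% and 1.85% of all peaks. The Slc2a3 peak above scored 18.6 and 15.5 in R397W and 39.8 and 52.1 in the control (-1.37 ± 0.37, adjusted p = 0.039). The Hif1a peak chr12:73879672-73880072 scored 23.1 and 13.8 against 51.8 and 56.2 (-1.54 ± 0.33, adjusted p = 0.0073). The Bpgm peak chr6:34495046-34495446 was higher, at 78.2 and 95 against 26.4 and 28.8 (1.61 ± 0.30, adjusted p = 0.0026). The Prr5l peaks chr2:101796521-101796921 and chr2:101732787-101733187 were higher by 0.71 ± 0.19 (adjusted p = 0.04) and 1.11 ± 0.30 (adjusted p = 0.037). The groups overlapped at none of these 5, which is again no added support. Leaving out any of the 4 libraries left 0 to 2 calls. The balance also depended on the fit: the fit of these groups alone gave 11 higher and 13 lower, edgeR 6 and 13, and the replicate block 3 and 5. The smaller table under its own names gave 31 and 43. Its R397W and control libraries, however, are those named cTreg and eTreg in the larger table. Naive or central markers summed to 19960 to 22190 in R397W and 15150 to 18140 in the control, and effector markers to 7884 to 8089 and 8888 to 9607. Their part in the result was not tested.

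In DKO Treg, adding back Foxp3 alone moved a single member peak, BATF alone raised several, and both together moved many in each direction. All 3 comparisons share the mock libraries. With Foxp3 alone no member peak was called higher by limma (beside 1.01% of all peaks) and 1 lower (beside 0.814%). By limma 21 passed an unadjusted p under 0.05, and edgeR called 2, both lower. With BATF alone 9 were higher and none lower, beside 3.2% and 0.291%. With both, 25 were higher and 25 lower, beside 12.9% and 10.5%. A departure from additivity of the 2 factors on the log2 scale was called at no member peak by limma, beside 0.586% higher and 0.506% lower of all peaks. At an unadjusted p under 0.05 there were 23. edgeR called 2, an added 5 gave 4, and the fit with the replicate number as a block called 3 lower. Without mock replicate 1 Foxp3 alone gave 4 calls, and without Foxp3 replicate 1 it gave 2.

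The 9 peaks that rose with BATF were at Hif1a and Rptor (3 each), Slc2a3, Slc16a1 and Prr5l. The Hif1a call at chr12:73895706-73896106 (1.44 ± 0.42, adjusted p = 0.049) was lost under 9 alternatives. At the Slc2a3 peak chr6:122758726-122759126, mock scored 23.2 and 16.6, Foxp3 31.2 and 32.2, BATF 103 and 102, and both 150 and 145. The BATF libraries lay above mock and Foxp3, and those with both were highest. The difference from mock was 2.32 ± 0.37 for BATF (adjusted p = 0.00012) and 2.85 ± 0.37 for both (adjusted p = 9.4e-07). At the Hif1a peak chr12:73880381-73880781, mock scored 23.2 and 6.84, Foxp3 28 and 16.9, BATF 105 and 117, and both 148 and 181. The same order held, with 3.02 ± 0.41 for BATF (adjusted p = 8.4e-06) and 3.58 ± 0.41 for both (adjusted p = 9.1e-08). At the Rptor peak chr11:119806546-119806946, mock scored 1.05 and 3.91, Foxp3 3.23 and 4.61, BATF 28.4 and 30.7, and both 114 and 113. Here the difference was 3.27 ± 0.62 for BATF (adjusted p = 0.00093) and 5.17 ± 0.62 for both (adjusted p = 2.2e-07), with few reads in mock.

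At 2 peaks the BATF result in DKO Treg was opposite in sign to the BATFKO result, in separate libraries. The Slc2a3 peak and the Prr5l peak chr2:101819352-101819752 were lower in BATFKO Treg and higher with BATF in DKO Treg. The Prr5l peak scored 12.7 and 15.6 in mock, 10.8 and 10.7 with Foxp3, 79.2 and 99.8 with BATF, and 24.3 and 67.9 with both. BATF lay clear of mock (2.58 ± 0.45, adjusted p = 0.00035), and the libraries with both factors differed widely from each other (1.47 ± 0.45, adjusted p = 0.016). The latter call was lost under quantile scaling (adjusted p = 0.078) and without mock replicate 1 or replicate 2 of the group with both (adjusted p = 0.09 and 0.35). At the Pik3r1 peak lowered in BATFKO, mock scored 67.5 and 95.8 and BATF 92.8 and 128, which was not called. At Rptor chr11:119894696-119895096 only both factors together stood out, at 109 and 138 against 12.7 and 7.82 in mock, 8.61 and 29.2 with Foxp3 and 14.8 and 23 with BATF. The difference of both from mock was 3.49 ± 0.51 (adjusted p = 5.2e-06), and no departure from additivity was called there.

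Some peaks closed when both factors were present. Bpgm was the member lowered by Foxp3 alone: at chr6:34495046-34495446 mock scored 88.5 and 122, Foxp3 16.1 and 23, BATF 97.7 and 125, and both 11.7 and 9.21. Libraries with Foxp3 were low with or without BATF, and BATF alone overlapped mock. The difference from mock was -2.37 ± 0.30 for Foxp3 (adjusted p = 7.7e-05) and -3.21 ± 0.30 for both (adjusted p = 3.4e-09). The same peak was higher in R397W Treg than in their control, and lower in WT Treg than in Tconv. Of the 14 Prr5l peaks, 6 were lower with both factors than in mock. The Prr5l peak chr2:101796521-101796921 scored 369 and 407 in mock, 368 and 308 with Foxp3, 325 and 326 with BATF, and 184 and 200 with both (-1.01 ± 0.19, adjusted p = 0.00021). Of the 15 Rptor peaks 7 were higher and 1 lower with both, and of the 18 Hif1a peaks 6 were higher and 2 lower. For all peaks 12.9% were higher and 10.5% lower with both.

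**Figure D5:**
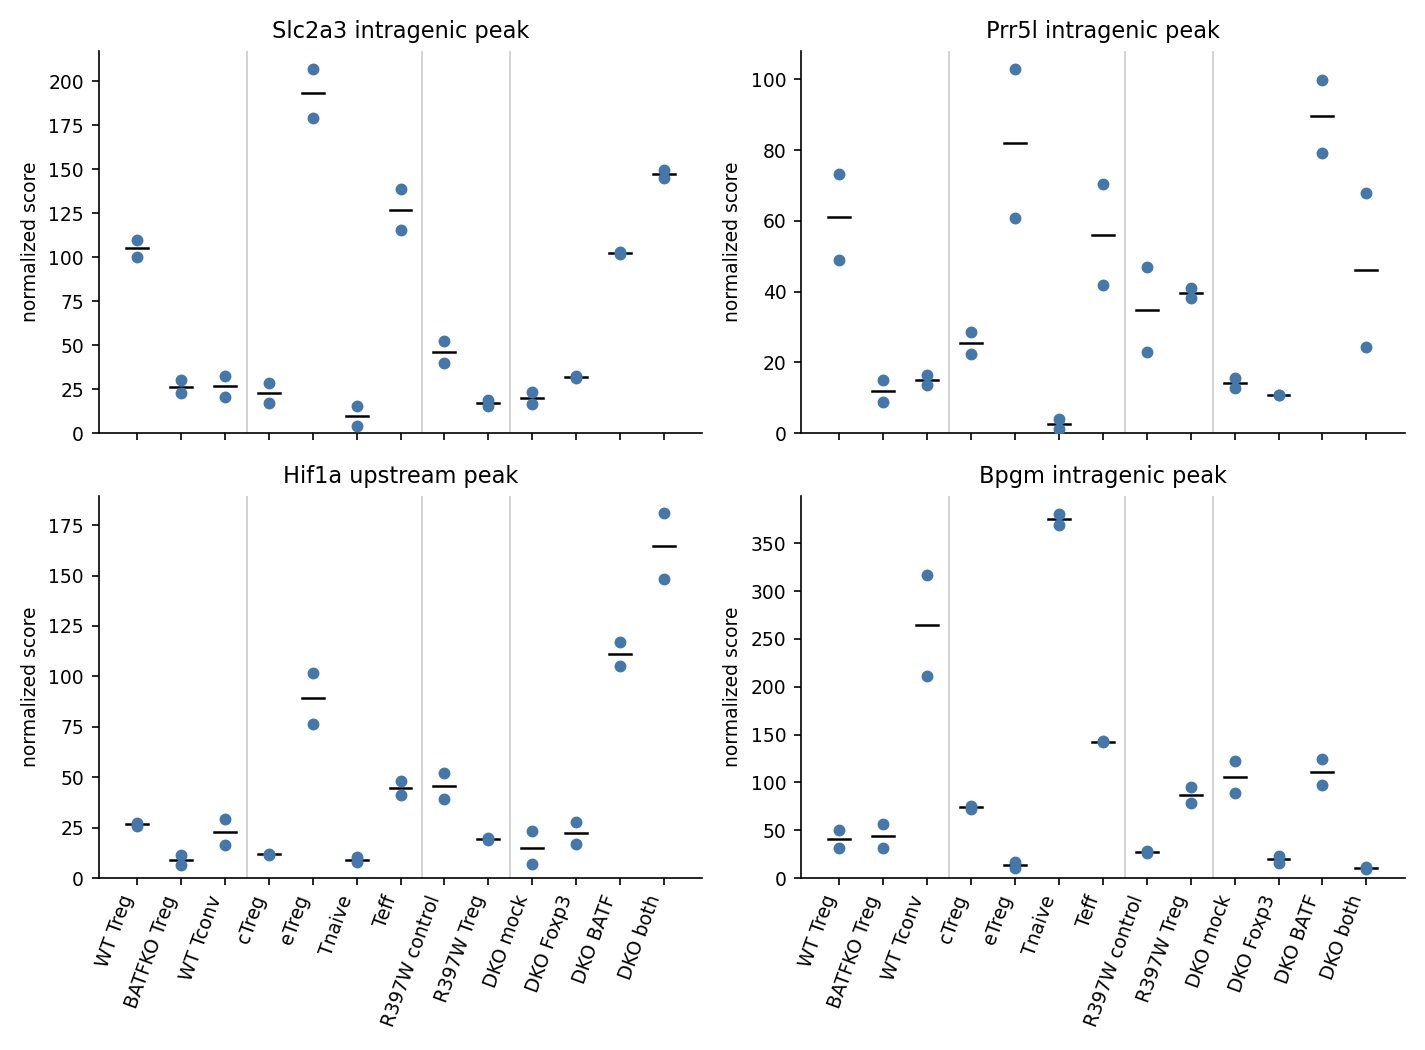
Normalized score (y axis) at 4 peaks, of Slc2a3, Prr5l, Hif1a and Bpgm, in all 13 groups (x axis). Points are libraries and bars are their mean: the Slc2a3 peak reaches 102 to 150 with BATF, alone or with Foxp3, and the Bpgm peak 9.21 to 23 with Foxp3, alone or with BATF.

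Marker peaks moved in the same DKO libraries. Peaks at 6 of 7 myeloid markers, all but Csf1r, summed to 990 to 1217 in mock and 1906 to 2204 with both factors, at most 0.0187% of all scores. Naive or central markers summed to 21840 to 29560 in mock and 12950 to 16140 with both, and effector markers to 12850 to 14000 and 16130 to 19690. Their part in the member results was not tested.

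Other genes of the same pathways were taken from lists of pathway members. At 18 of 20 further genes of glycolysis and its branches, 5 of 64 peaks were higher and 10 lower in eTreg than in cTreg, and 4 were higher and 10 lower in Teff than in Tnaive (7.81%, 15.6%, 6.25% and 15.6%). For all peaks the same shares were 19.7%, 17.4%, 20.7% and 19.6%. With both factors in DKO Treg 3 were higher and 7 lower than in mock (4.69% and 10.9%, beside 12.9% and 10.5%). At 35 further PI3K and mTOR genes, 47 of 251 peaks were higher and 38 lower in eTreg than in cTreg, 42 were higher and 53 lower in Teff than in Tnaive, and 32 were higher and 39 lower with both factors. For this second list the shares higher and lower were 18.7% and 15.1% beside 19.7% and 17.4% of all peaks, then 16.7% and 21.1% beside 20.7% and 19.6%, and 12.7% and 15.5% beside 12.9% and 10.5%. BATF alone raised 8 of these 251 (3.19%) and none of the 64, beside 3.2% of all peaks. The medians of the steps were -0.09 and -0.17 for the first list and -0.01 and -0.10 for the second, beside 0.03 and -0.01 over all peaks.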

How the data were processed

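ATAC-seq was analysed in the 26-library table of normalized peak scores that the authors deposited, a signal that is never negative. The submitters' processing notes name edgeR 3.38.4 and 3.36.0, DiffBind 3.4.11 and 3.0.15, MACS2 2.2.7.1 and Bowtie2 2.4.1 with mm10. What each did is not given in the sources used here. Within a library every score was a whole number of reads, to within 0.02, times 1 factor, so 100% of values gave whole reads. Depth was 3716499 to 25462278 reads in peaks, which limits low peaks. Each peak went to its closest protein-coding gene body within 100 kb (bedtools 2.31.1, RefSeq GRCm38.p6). limma 3.58.1 (R 4.3.3, trend and robust) was fitted to log2(score + 1) with all 13 groups, 13 residual degrees of freedom and no block, in 12 contrasts, with Benjamini-Hochberg adjustment over all peaks. Scores near 0 make such differences depend on the added 1. Alternatives were an added 5, a mean score of at least 20, quantile scaling, a replicate block, only the groups compared, each library left out, edgeR 4.0.16 on the recovered reads, assignment within 10 kb, and the 22-library table under its own names. Named peaks were each gene's most open peak and, by contrast, called peaks with the largest log2 change, 1 per gene. The latter were taken from peaks above the median score without overlap between the groups compared. Lack of overlap at named peaks is thus no added support, and its share over all peaks was not computed. For the difference of the steps and for additivity, peaks with the smallest p were named. Others were added after their values were seen. Members, lists and alternatives were chosen with earlier results of these data known. The test was checked on simulated data. Foxp3KO Treg and their control were not analysed here. The table's peaks carry no exon or intron labels, and none were assigned.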

Additional observations from a re-analysis of the deposited data

Results flagged for a closer look

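At 15 member peaks the change from central to effector Treg differed from that from naive to effector conventional cells, by limma's test of the difference itself at an adjusted p under 0.05. Of these, 11 were Prr5l peaks on chromosome 2. Their differences of steps, named by peak start, were -4.01 (101796521), -4.44 (101822738), -2.73 (101823934), -4.64 (101816911), -3.34 (101810833), -4.00 (101781420), -1.73 (101732787), -2.44 (101819352), -1.21 (101756036), -1.82 (101715671) and -1.60 (101762386). At each of them Teff lay above Tnaive. At the Hk1 peak chr10:62277508-62277908 the difference was -2.60, and at the Slc2a1 peak chr4:119127217-119127617 it was -1.12. At the Myc peaks chr15:62025188-62025588 and chr15:61949551-61949951 it was 4.41 and 3.14. At several of these peaks Tnaive libraries held few or 0 reads, so the size depends on the added 1.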

How the results depend on the processing

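Among the peaks named in the text, no log2 difference that was called changed sign under the alternatives run for it. The balance of higher and lower calls did turn over. In a fit of only the groups compared it did so for cTreg and Tnaive (26 higher, 29 lower) and eTreg and Teff (32 and 28). For R397W it did so with edgeR (6 and 13), the block (3 and 5), only the groups compared (11 and 13) and an added 5 (3 and 4). Under its own names the smaller table gave 4 higher and 8 lower for eTreg and cTreg. It gave 2 and 7 for Teff and Tnaive, and 31 and 43 for R397W. Those counts come from other libraries than the larger table's groups of the same names. The even balance for both factors and mock went to 25 higher and 36 lower with edgeR. Of the counts of member peaks called, 106 of 148 alternative values lay within 1.5 times the value reported. Leaving out each library in turn gave 25 to 32 calls for WT Treg and Tconv, 46 to 53 for eTreg and cTreg, 68 to 76 for Teff and Tnaive, 6 to 10 for the difference of the steps, 26 to 39 for cTreg and Tnaive, 22 to 27 for eTreg and Teff, 1 to 4 for BATFKO, 0 to 2 for R397W, 1 to 4 for Foxp3, 6 to 9 for BATF and 36 to 42 for both factors, and 0 to 1 for additivity. The smaller table under its own names gave 78 for WT Treg and Tconv, 12 for eTreg and cTreg, 9 for Teff and Tnaive, 0 for the difference of the steps, 0 for cTreg and Tnaive, 0 for eTreg and Teff, 7 for BATFKO and 74 for R397W. WT Treg, Tconv and BATFKO libraries carry the same names in both tables, and the other groups hold other libraries under those names. Assignment within 10 kb gave 42 for eTreg and cTreg, of 178 peaks. Quantile scaling gave 12 for BATFKO. edgeR gave 9 for BATFKO, 19 for R397W, 2 for Foxp3 and 2 for additivity, and an added 5 gave 4 for additivity. Only the groups compared gave 24 for R397W. The replicate block gave 8 for R397W and 3 for additivity, and moved no other count by over 1.5 times. Labels do not say that replicate numbers pair libraries, and with 2 numbers the correlation of same-numbered deviations cannot settle it. It was 0.327 for R397W and its control, 0.147 to 0.215 for all 6 pairs of DKO groups, and 0.0435 to 0.162 for the other pairs compared. edgeR shifted the median difference of both factors and mock to -0.11. Causes of these shifts were not tested. Shallow libraries limit what low peaks can show.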
